A study of Mus musculus with 12 samples.

Results

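The genes described here are 34 genes of cholesterol and fatty acid synthesis, listed by name for their place in the pathway. The rule used no measured value, but the list was drawn up with earlier results of these data known. A probe set, the group of short probes that reports 1 gene on the array, was annotated to 32 of the 34, out of 12393 genes in all, and where a gene had several probe sets the one with the highest mean log2 intensity over the 12 arrays stood for it. Insig1 and Acat2 are not analysed here. The 32 comprise 7 genes of the mevalonate and isoprenoid steps, 10 of the steps from squalene to cholesterol, 5 regulators and carriers, 4 genes of fatty acid synthesis and 6 of desaturation and elongation.

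RNA came from BMEL cells (bipotential cells of the mouse embryonic liver), which grow without limit in culture and can differentiate towards hepatocytes or towards bile duct cells. The lines 9A1 and 14B3 were isolated independently from livers of dpc14 embryos of strain CBA/J x C57Bl/6J, and no allele or agent sets them apart in the labels. Each line was grown in basal culture, as aggregates for 5 days, and in Matrigel, a basement membrane gel, for 10 days, except that Matrigel_14B3 replicate 1 is labelled 5 days. The 6 groups held 2 arrays each. With 1 line of each name, a line difference is a difference between these 2 lines and cannot be extended to other isolates. Between Matrigel and aggregates the culture and the days of culture cannot be told apart. In Matrigel the days differ in part between the lines, and within 14B3 replicate and days cannot be told apart. The design text names the arrays biological duplicates and says no more, so the spread that enters the p-values may be technical.

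Cholesterol is built from acetyl-CoA through mevalonate, isoprenoid units, squalene and lanosterol, and fatty acids are built from the same acetyl-CoA by carboxylation, chain assembly, elongation and desaturation. When sterol in the endoplasmic reticulum runs low, Scap escorts the SREBP transcription factors (products of Srebf1 and Srebf2) out of it to be cleaved and to enter the nucleus, while the Insig proteins hold Scap back when sterol is plentiful. SREBP-2 acts mainly on cholesterol genes and SREBP-1c on fatty acid genes, and in liver both programmes feed membranes, lipoproteins and bile acids.

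Array medians lay between 268 and 281 intensity units, and the 2 arrays of a group correlated with r from 0.984 to 0.993 across genes. Of 13 markers of embryonic liver progenitors 12 were measured. The keratin genes Krt8, Krt18 and Krt19 and the liver factor gene Hnf4a had group means of 11.57 or more on the log2 scale in all 6 groups, while Alb, Ttr and Epcam were at 7.63 to 9.15 in the basal groups and at 11.80 or more in the others. Sox9 (6.94 to 7.91) and Onecut1 (7.36 to 7.73) stayed low in all groups. As a guide to background, 7 genes of pancreas, lung, kidney, muscle, heart and brain lay between log2 4.74 and 8.64 over the arrays, and levels within that range may be background. Levels below are log2 intensities, differences are log2 differences, and a gene is called when limma's two-sided p, adjusted by Benjamini-Hochberg over all 12393 genes, is below 0.05.

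In basal culture the cholesterol pathway stood higher in 14B3 than in 9A1. On the chosen probe sets all 17 measured cholesterol enzymes were above 0 in the difference 14B3 minus 9A1, with a median of 0.66. Over all 32 genes, 32 of 32 were above 0 with a median of 0.49, against 61.5% of all genes with a median of 0.05. Of the 32, 5 were called higher and 0 lower, where 1.9% of all genes were called. At an unadjusted p below 0.05, 15 of the 32 were higher and 0 lower, against 4.45% and 4.7% of all genes. The arrays of the lines did not overlap, with 14B3 higher, for 25 of the 32 genes, and for 26.9% of all genes. Some of these genes had other probe sets, 32 in all, of which 26 were above 0 as well. Those below 0, at -0.32 to -0.01, belonged to Ggps1, Insig2, Elovl5 and Acly.

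**Figure D1:**
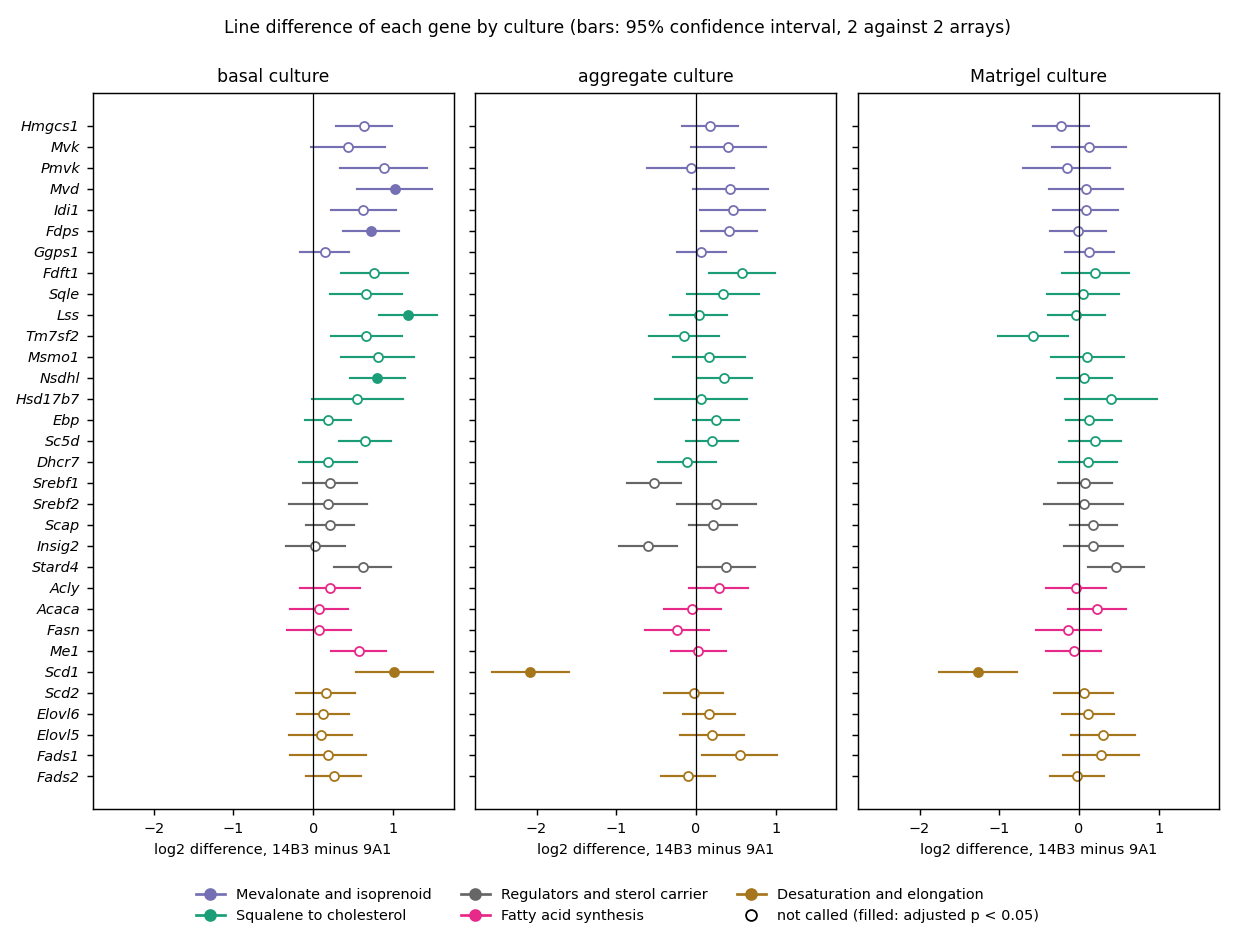
Log2 difference 14B3 minus 9A1 of each of the 32 genes in basal, aggregate and Matrigel culture, with bars for the 95% confidence interval from 2 against 2 arrays, coloured by step and filled where the gene was called. In basal culture every point lies right of 0, in the other cultures most lie near 0, and Scd1 changes side, from 1.02 to -2.08 and -1.27.

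Lss (lanosterol synthase, which closes squalene epoxide into the first sterol) showed the largest line difference in basal culture. Its levels were 9.69 and 9.78 on the 9A1 arrays and 11.02 and 10.84 on the 14B3 arrays. The lines were thus apart by far more than the 2 arrays of either line, by 1.19 ± 0.17 (SE), 2.29-fold (adjusted p = 0.00354). The other probe sets of Lss gave 1.57 and 0.50.

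Mvd, the decarboxylase that makes isopentenyl diphosphate at the end of the mevalonate steps, was at 8.78 and 8.79 in 9A1 and at 10.02 and 9.60 in 14B3. The 14B3 arrays were the higher ones and differed from each other by 0.42. The difference between lines was 1.02 ± 0.21 (SE), 2.03-fold (adjusted p = 0.0343). Fdps, which joins isoprenoid units into farnesyl diphosphate, was at 11.99 and 12.19 in 9A1 and at 12.79 and 12.83 in 14B3. Both 14B3 arrays were higher, by 0.72 ± 0.16 (SE) in the mean, 1.65-fold (adjusted p = 0.0446).

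Nsdhl, a dehydrogenase that helps strip methyl groups from lanosterol, was at 10.27 and 10.23 in 9A1 and at 11.18 and 10.93 in 14B3. Both of its 14B3 arrays lay above those of 9A1, with a difference of 0.81 ± 0.16 (SE), 1.75-fold (adjusted p = 0.0243). The fifth called gene belongs to the fatty acid side: Scd1, the stearoyl-CoA desaturase that makes monounsaturated fatty acids. Its levels were 9.66 and 10.14 in 9A1 and 10.89 and 10.96 in 14B3. The 9A1 arrays were low and 0.48 apart, and the line difference was 1.02 ± 0.22 (SE), 2.03-fold (adjusted p = 0.0391).

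Other cholesterol enzymes had differences of like size that were not called. Pmvk (phosphomevalonate kinase) was at 0.88 (adjusted p = 0.134), Msmo1 (methylsterol monooxygenase) at 0.81 (0.091), Fdft1 (squalene synthase) at 0.77 (0.0795), Tm7sf2 (a sterol reductase) at 0.67 (0.168), Sqle (squalene epoxidase) at 0.66 (0.189), Sc5d (a sterol desaturase) at 0.65 (0.0533) and Hmgcs1 (HMG-CoA synthase, the entry to mevalonate) at 0.64 (0.082). Idi1 (isopentenyl diphosphate isomerase) was at 0.63 (adjusted p = 0.152), Hsd17b7 (a sterol ketone reductase) at 0.55 (0.584) and Mvk (mevalonate kinase) at 0.43 (0.633). In all 10 the arrays of the lines did not overlap. All 4 probe sets of Hmgcs1 gave 0.53 to 0.74. At the low end were Ebp (0.19), Dhcr7 (0.18) and Ggps1 (0.15), of which Ggps1 makes geranylgeranyl diphosphate on a branch that leads away from sterol. The other probe sets of Ggps1 gave -0.12, -0.01 and -0.32. The levels of its chosen probe set, 8.14 to 8.46, lie within the range of the background guide. For Dhcr7, the last reductase of the pathway, the arrays overlapped.

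Fits with the replicate number as a block called more of these genes in basal culture. With 1 block shared by both lines 11 of the 32 were called, and with a block within each line 10, all higher in 14B3. Hmgcs1, Fdft1, Msmo1 and Sc5d were added under both (adjusted p = 0.0163 to 0.0438), Tm7sf2 (0.0376) and the sterol carrier gene Stard4 (0.0461) under the shared block, and Pmvk (0.0341) under the block within lines. In the other direction, leaving out 1 of the 4 basal arrays left 1 or 2 calls of the 5: 1 without basal_9A1 replicate 1, 2 without basal_9A1 replicate 2, and 1 each without basal_14B3 replicate 1 or 2. The call of Lss held in all 4. Leaving out an array of another culture moved the count through the shared estimate of the spread, to 8 without either array of aggregate_9A1 and to 3 without either of Matrigel_9A1.

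Promoters are shown for the called cholesterol enzymes for which RefSeq gave one (Mvd, Lss and Nsdhl), for Hmgcs1 and Tm7sf2, and for Fads2, a desaturase of polyunsaturated fatty acids whose basal line difference was 0.26 (not called). Each is the 150 bases before the annotated start, 5′ to 3′ on the gene's strand, from RefSeq on GRCm38.p6. The stretches lie at chr13:119690201-119690350 on the plus strand for Hmgcs1, chr8:122443423-122443572 on the minus strand for Mvd, chr10:76531455-76531604 on the plus strand for Lss, chrX:72918371-72918520 on the plus strand for Nsdhl, chr19:6067851-6068000 on the minus strand for Tm7sf2 and chr19:10101504-10101653 on the minus strand for Fads2. Capitals mark the letters CCAAT on either strand (ATTGG in reverse), the core of the box that the factor NF-Y reads, and in Hmgcs1 also the sterol regulatory element match that SREBP proteins are known to read.
Hmgcs1: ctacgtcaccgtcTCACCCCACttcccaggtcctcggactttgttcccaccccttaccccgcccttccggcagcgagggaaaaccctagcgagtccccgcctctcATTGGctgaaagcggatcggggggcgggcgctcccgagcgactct
Mvd: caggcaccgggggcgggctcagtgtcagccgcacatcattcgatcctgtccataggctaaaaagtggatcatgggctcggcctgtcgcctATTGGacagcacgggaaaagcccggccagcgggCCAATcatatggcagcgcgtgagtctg
Lss: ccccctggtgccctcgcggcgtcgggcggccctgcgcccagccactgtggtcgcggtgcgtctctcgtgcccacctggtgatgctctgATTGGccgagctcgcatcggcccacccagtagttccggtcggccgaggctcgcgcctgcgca
Nsdhl: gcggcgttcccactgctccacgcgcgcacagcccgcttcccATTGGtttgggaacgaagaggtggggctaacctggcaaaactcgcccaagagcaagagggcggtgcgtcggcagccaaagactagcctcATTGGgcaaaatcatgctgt
Tm7sf2: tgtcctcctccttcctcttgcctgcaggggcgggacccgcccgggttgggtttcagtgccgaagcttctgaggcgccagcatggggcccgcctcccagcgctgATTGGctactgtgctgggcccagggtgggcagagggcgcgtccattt
Fads2: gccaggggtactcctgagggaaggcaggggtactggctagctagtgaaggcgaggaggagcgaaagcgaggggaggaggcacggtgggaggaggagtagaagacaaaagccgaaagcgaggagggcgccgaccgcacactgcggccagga

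Over the full promoter windows of 250 bases before to 50 after the start, 25 of the 32 genes had an entry, and Fdps, Fdft1, Sqle, Stard4, Scd1, Scd2 and Fads1 had none. The CCAAT letters on either strand were present for 14 of 14 cholesterol enzymes and 4 of 7 fatty acid enzymes, and for 21 of the 25 genes (84%), against 41.1% of 27025 genes in the table. The sterol regulatory element, searched as TCACNCCAC on both strands, was found for Hmgcs1 alone among the 25, and for 1.44% of all genes. The GC box GGGCGG was found for 76% of the 25 and 38.2% of all genes, and the E-box CACGTG for 20% and 8.09%. The direct repeat DR4, a nuclear receptor motif, was in none of the 25 and in 0.0148% of all genes. GC and CCAAT boxes may overlap other sites, some genes have several start sites, and a match is letters in a window with no binding measured.

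Of the 10 fatty acid enzymes 10 were above 0 in the basal line difference, with a median of 0.17 beside the 0.66 of the cholesterol enzymes, a gap that was not tested. Me1 (malic enzyme, a source of NADPH) was at 0.57 (adjusted p = 0.118). Acly (ATP citrate lyase, which supplies acetyl-CoA) was at 0.21, Fads1 and Fads2 were at 0.18 and 0.26, and Elovl6 and Elovl5, which elongate fatty acids, were at 0.13 and 0.09. The other probe set of Elovl5 gave -0.08. Fasn (fatty acid synthase) and Acaca (acetyl-CoA carboxylase) were at 0.07 each, with 95% intervals of -0.33 to 0.47 and -0.29 to 0.43. The levels of Acaca, 7.60 to 8.35 over the arrays, lie within the range of the background guide and may be background. Scd2, the desaturase next of kin to Scd1, was at 0.16 (-0.21 to 0.53), and its other probe sets gave 0.39 and 0.50.

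Of the 5 regulators and carriers 0 were called by limma in basal culture, and 1, Stard4, had an unadjusted p below 0.05. Over all genes 1.9% were called, and at that p 4.45% were higher and 4.7% lower. Srebf1 was at 10.28 and 10.61 in 9A1 and at 10.52 and 10.81 in 14B3, which overlap. Srebf2 was at 11.08 and 10.88 against 11.23 and 11.10, and Scap at 9.96 and 9.89 against 10.22 and 10.05. Both were higher on the 14B3 arrays, by 0.18 and 0.21. Insig2 was at 8.93 and 9.15 in 9A1 and at 9.04 and 9.10 in 14B3, with a difference of 0.03. Stard4, which carries cholesterol between membranes, was at 9.62 and 9.72 against 10.44 and 10.14, a difference of 0.62 (adjusted p = 0.0958). RNA levels say nothing of how much SREBP protein was cleaved.

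In whole cultures a lower level can be fewer cells of a type or less RNA per cell, which cannot be told apart. Of the progenitor markers, Afp (alpha-fetoprotein, a protein of fetal hepatocytes) was higher in 14B3 in basal culture (2.48, adjusted p = 0.00784). Its group means were 8.004 in 9A1 and 10.49 in 14B3. Sox9 was lower in 14B3 in basal culture (-0.83, adjusted p = 0.0383) and in Matrigel (-0.78, adjusted p = 0.0347). The 9A1 mean of Afp and the Sox9 levels of all arrays (6.85 to 8.09) lie within the range of the background guide. The summed intensity of the 12 markers was 43200 to 44230 in 9A1 and 48880 to 49030 in 14B3. Their part in the line difference was not tested. Of 9 measured proliferation genes 0 were called by limma in basal culture, and 0 had an unadjusted p below 0.05. Over all genes 1.9% were called, and at that p 4.45% were higher and 4.7% lower. The 9 genes had a median difference of 0.01. Their summed intensity was 28440 to 30220 in 9A1 and 26270 to 31370 in 14B3, and these ranges overlapped.

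In the aggregates most line differences of the pathway were smaller, and Scd1 ran the other way. Of the 32 genes 22 were above 0, with a median of 0.17 (56.4% of all genes, median 0.03), and 1 was called, lower in 14B3, where 1.53% of all genes were called. At an unadjusted p below 0.05, 6 were higher and 3 lower, against 3.89% and 4.15% of all genes. Scd1 was at 12.48 and 12.86 in 9A1 and at 10.48 and 10.70 in 14B3. The 14B3 arrays lay far below, by 2.08 ± 0.22 (SE) on the log2 scale, 4.22-fold lower (adjusted p = 0.000344). Its other probe set gave -2.03. The count of calls was 2 without either array of aggregate_9A1.

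No other gene was called between lines in the aggregates. Lss was at 10.86 and 11.15 in 9A1 and at 11.06 and 11.005 in 14B3, a difference of 0.03 with a 95% interval of -0.33 to 0.39. Mvd was at 9.46 and 9.75 against 9.76 and 10.31, Nsdhl at 10.78 and 11.11 against 11.26 and 11.33, and Fdps at 11.95 and 12.29 against 12.37 and 12.69. For these 3 the 14B3 arrays lay above those of 9A1 by 0.43, 0.35 and 0.41 in the mean. Fdft1 had the largest difference upward (0.58, adjusted p = 0.303).

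Insig2 and Srebf1 were the next lowest after Scd1 in the aggregates of 14B3. Insig2 was at 10.02 and 10.40 in 9A1 and at 9.79 and 9.42 in 14B3 (-0.60, adjusted p = 0.158), and its other probe sets gave -0.72 and -1.29. Srebf1 was at 11.66 and 11.49 against 10.99 and 11.12 (-0.52, adjusted p = 0.205). In both, the arrays of the lines did not overlap, with 14B3 lower, as for 15% of all genes, and neither was called. Srebf2 (10.49 and 10.43 against 10.78 and 10.66), Scap (9.82 and 9.57 against 9.89 and 9.92) and Stard4 (10.24 and 10.65 against 10.80 and 10.84) were higher in 14B3 by 0.26, 0.21 and 0.38, not called.

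Matrigel culture had the smallest median line difference of the 3 cultures. Of the 32 genes 22 were above 0, with a median of 0.09 (59.2% of all genes, median 0.04), and Scd1 was again the 1 called gene, lower in 14B3, where 3.77% of all genes were called. At an unadjusted p below 0.05, 1 was higher and 2 lower, against 5.33% and 6.92% of all genes. Scd1 was at 11.93 and 11.90 in 9A1 and at 10.33 and 10.96 in 14B3. Both 14B3 arrays were lower, though 0.63 apart, with a difference of -1.27 ± 0.22 (SE), 2.41-fold lower (adjusted p = 0.00687). Its other probe set gave -1.25. The call was lost, leaving 0, without Matrigel_9A1 replicate 1 and without Matrigel_14B3 replicate 1, the array labelled 5 days.

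Tm7sf2 was the next lowest in 14B3 in Matrigel, at 10.29 and 10.49 in 9A1 and at 9.55 and 10.07 in 14B3. The 9.55 is from Matrigel_14B3 replicate 1, the array labelled 5 days. The difference of Tm7sf2 was -0.58 (adjusted p = 0.195). It was called with a block shared by both lines (adjusted p = 0.0486), which made 2 calls in place of 1. That block does not separate replicate from days in 14B3 Matrigel. Lss (-0.03), Fdps (-0.02), Nsdhl (0.07) and Mvd (0.09), all called in basal culture, had 95% intervals here that ran from -0.39 to 0.33, -0.37 to 0.34, -0.28 to 0.41 and -0.38 to 0.56. Among the regulators, Srebf1 was at 11.002 and 11.13 in 9A1 and 11.14 and 11.14 in 14B3, Srebf2 at 10.91 and 10.33 against 11.02 and 10.34, and Scap at 9.83 and 9.74 against 10.06 and 9.88. Insig2 was at 9.93 and 9.86 against 10.02 and 10.13, and Stard4 at 9.78 and 9.83 against 10.17 and 10.36. Stard4 had the largest of these differences (0.46, adjusted p = 0.201).

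Markers of other cells also differed between lines in these cultures. The macrophage receptor gene Csf1r was lower in 14B3 in the aggregates (-1.79, adjusted p = 4.16e-05) and in Matrigel (-1.26, adjusted p = 0.000482), and the 5 measured of 7 haematopoietic markers summed to 3631 to 3861 in 9A1 aggregates and 1249 to 1331 in 14B3 aggregates. Ptprc, Cd68, Hba-a1 and Itgam, the other 4 of them, had group means of 5.12 to 7.74, within the range of the background guide. Col1a1 and Col3a1 of 8 stellate or fibroblast markers were lower in 14B3 in Matrigel (-1.28 and -1.99, adjusted p = 0.0155 and 0.0208), with sums over the 8 of 1301 to 1696 in 9A1 and 941.6 to 1128 in 14B3. The other 6 lay between -0.44 and 0.11 and were not called. Col3a1 was at 8.22 or less on every array, within the range of the background guide. Cdh5 of 6 endothelial markers was higher (1.55, adjusted p = 0.00249), with sums of 629.5 to 807.9 and 913.8 to 1149. The other 5 endothelial markers lay between 0.02 and 0.18 and were not called. The part of these cells in the line differences of lipid genes was not tested. Of the 9 proliferation genes 0 were called by limma between lines in either culture, with medians of 0.57 in the aggregates and 0.11 in Matrigel. At an unadjusted p below 0.05, 5 were higher in the aggregates, and 1 was higher and 1 lower in Matrigel. Over all genes 3.89% were higher at that p in the aggregates, and 5.33% were higher and 6.92% lower in Matrigel. Called between lines were 1.53% of all genes in the aggregates and 3.77% in Matrigel.

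**Figure D2:**
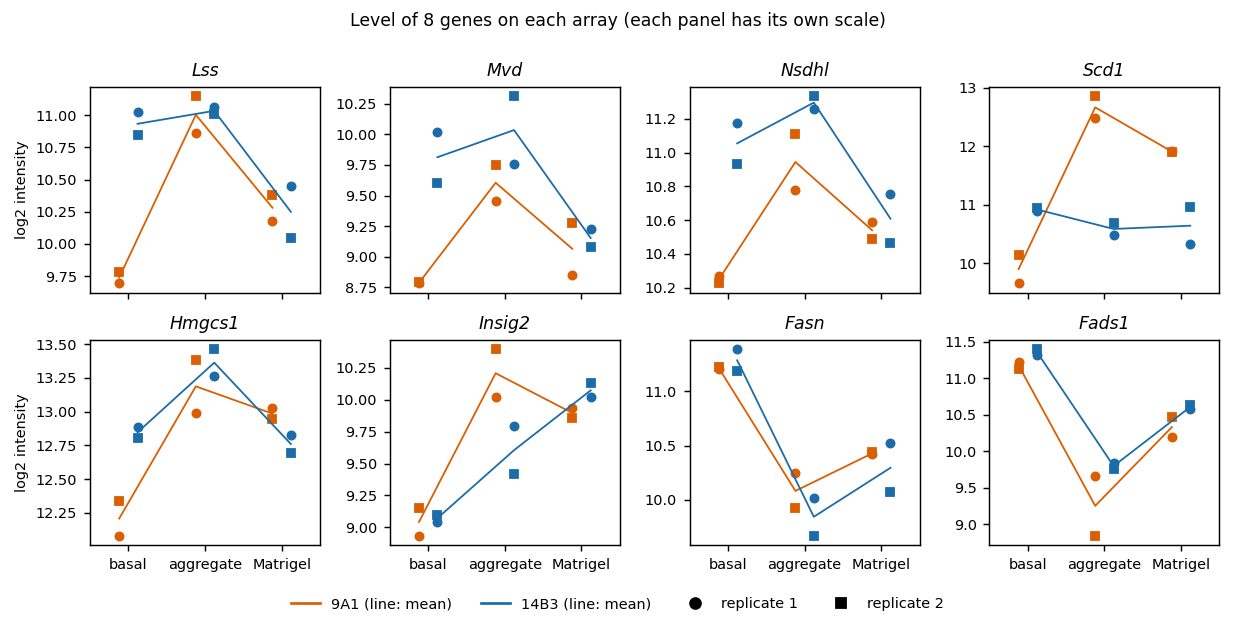
Log2 intensity of 8 genes on each of the 12 arrays (circles replicate 1, squares replicate 2) with lines joining the group means of 9A1 and 14B3 over basal, aggregate and Matrigel culture, each panel on its own scale. Lss, Mvd and Nsdhl are lower in 9A1 than in 14B3 in basal culture, and the lines lie closer together in the other cultures. In Matrigel 9A1 lies above its basal means (0.54, 0.28 and 0.29) and 14B3 below its own (-0.68, -0.66 and -0.45). Among these only the changes of Lss were called. Scd1 rises in 9A1 from 9.90 to 12.67 and 11.91 with 14B3 between 10.59 and 10.92, and Fasn and Fads1 are highest in basal culture in both lines.

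The change in the line difference between cultures was tested directly as an interaction. For aggregates against basal culture Scd1 was the 1 called gene (-3.10 ± 0.31, SE, adjusted p = 0.000675), where 0.468% of all genes were called. The difference turned from 1.02 in basal culture to -2.08. Of the 32 genes 26 were below 0, with a median of -0.31 (all genes -0.01), and at an unadjusted p below 0.05, 0 were above and 8 below, against 2.9% and 3.73% of all genes. Lss was at -1.16 (adjusted p = 0.0639) and was called with the replicate block, shared (0.0391) or within lines (0.0145), which made 2 calls. There were 3 calls without aggregate_9A1 replicate 1 and 2 without either array of Matrigel_14B3.

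For Matrigel against basal culture Scd1 (-2.29 ± 0.31, SE, adjusted p = 0.00652) and Lss (-1.23 ± 0.23, SE, adjusted p = 0.0379) were called, where 0.686% of all genes were called. Lss went from a line difference of 1.19 in basal culture to -0.03 in Matrigel, where its levels were 10.18 and 10.38 in 9A1 and 10.45 and 10.05 in 14B3. All 17 cholesterol enzymes were below 0 in this interaction, with a median of -0.61, and 28 of the 32 genes were, with a median of -0.27 (all genes -0.01). At an unadjusted p below 0.05, 0 were above and 10 below, against 2.6% and 4.17% of all genes. Tm7sf2 (-1.25, adjusted p = 0.0943) was called with the replicate block, shared (0.0172) or within lines (0.0289). The call of Lss was lost without any 1 of the 4 basal arrays, either array of aggregate_14B3 or Matrigel_9A1, or Matrigel_14B3 replicate 2, and held without Matrigel_14B3 replicate 1.

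Between Matrigel and aggregates 0 of the 32 were called by limma, where 0.42% of all genes were called, and 3 were higher and 0 lower at an unadjusted p below 0.05, against 2.48% and 3.33% of all genes. These were Insig2 (0.78, adjusted p = 0.367), Srebf1 (0.59, adjusted p = 0.625) and Scd1 (0.81, adjusted p = 0.67). The 3 interactions share arrays, so they are not independent of each other.

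Of the markers, Afp and Csf1r also had called interactions. Afp rose by 3.73 in the aggregates and 4.42 in the Matrigel cultures of 9A1 and was at 0.43 and 0.90 in those of 14B3, not called there. Its interaction was -3.29 (adjusted p = 0.0265) for aggregates and -3.52 (adjusted p = 0.014) for Matrigel, below 0 like those of Scd1 and Lss. It was the 1 called of the 12 progenitor markers in each, and their sums were 53930 to 73800 in 9A1 aggregates, 55230 to 67070 in 14B3 aggregates, 64750 to 67610 in 9A1 Matrigel and 62610 to 63070 in 14B3 Matrigel. Csf1r was called for aggregates (-1.46, adjusted p = 0.00961) and not for Matrigel (-0.92, adjusted p = 0.0873), and was the 1 called of the 5 haematopoietic markers. The part of either in the interactions of Scd1 and Lss was not tested.

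Seen within each line, the same values say how the pathway moved from basal culture. In 9A1 aggregates 17 of the 32 genes rose and 3 fell, where 36.9% of all genes were called (17.4% up, 19.5% down). The median was 0.55 against 0.11 over all genes. In 14B3 aggregates 7 rose and 3 fell, with a median of 0.10 against 0.06, where 33.2% of all genes were called (15.7% up, 17.5% down). In 9A1 Matrigel 9 rose and 2 fell with a median of 0.12, where 17.8% of all genes were called, and in 14B3 Matrigel 1 rose and 7 fell with a median of -0.19, where 16.5% were. The responses of a line share its 2 basal arrays, and those arrays also enter the basal line difference. Without aggregate_9A1 replicate 2 the calls in 9A1 aggregates were 13 in place of 20.

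**Figure D3:**
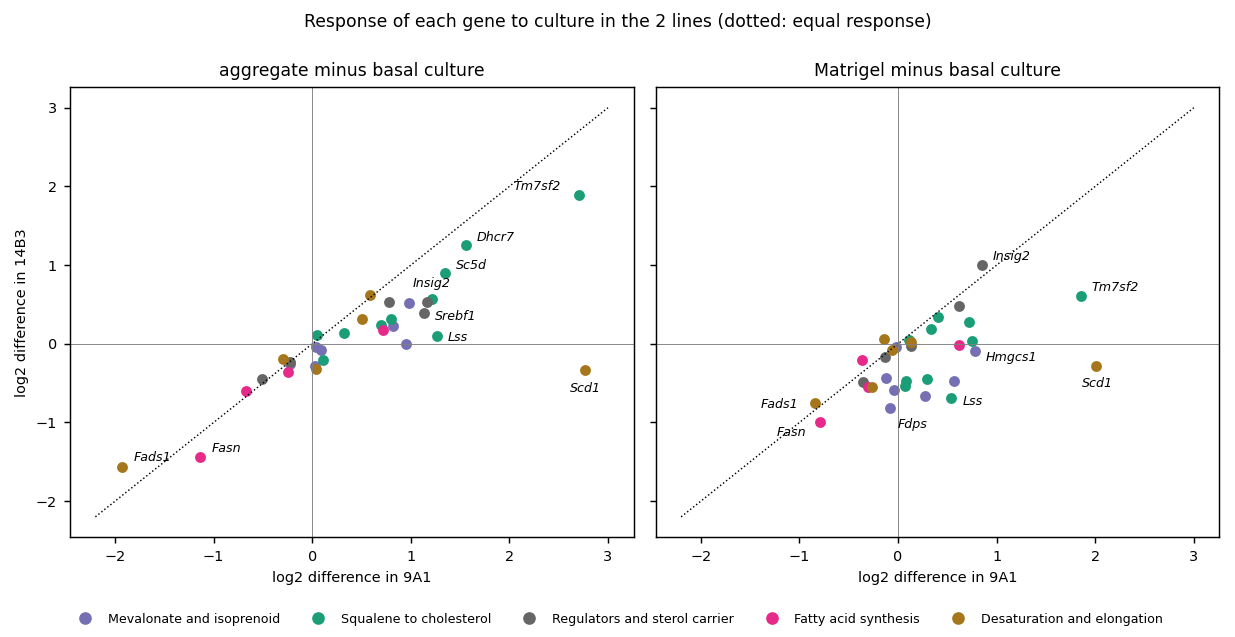
Log2 difference of each of the 32 genes from basal culture in 9A1 (horizontal) and in 14B3 (vertical), for aggregates on the left and Matrigel on the right, with a dotted line for equal responses and colours for the step. Most genes lie below the dotted line, Scd1 lies farthest from it (2.76 in 9A1 and -0.33 in 14B3 in aggregates), and Fads1 and Fasn lie at the lower left in both panels.

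Several late sterol enzymes rose in the aggregates of both lines. In 9A1, 7 of the 10 genes from squalene to cholesterol rose and all 10 were above 0, and in 14B3, 3 rose and 9 were above 0. Over all genes 17.4% rose in 9A1 aggregates and 15.7% in those of 14B3, and 62.1% and 58.3% were above 0. Tm7sf2 was at 8.48 and 8.60 in basal 9A1 and at 10.99 and 11.49 in its aggregates, and at 9.26 and 9.15 in basal 14B3 and 10.99 and 11.19 in its aggregates. It rose by 2.70 ± 0.20 (SE, adjusted p = 9.44e-07) in 9A1 and by 1.88 ± 0.20 (SE, adjusted p = 2.29e-05) in 14B3, and its basal 9A1 levels lie within the range of the background guide, so the rise there can be understated. Dhcr7 rose by 1.56 and 1.26 and Sc5d by 1.35 and 0.90 in 9A1 and 14B3. Lss rose by 1.26 in 9A1 (adjusted p = 7.99e-05) and was at 0.10 in 14B3 (adjusted p = 0.715), and Msmo1 rose by 1.21 in 9A1 and was at 0.57 in 14B3 (adjusted p = 0.0553, 0.0149 with the shared block and 0.0104 with the block within lines).

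Among the early steps Hmgcs1 rose in the aggregates of both lines. Of the 7 mevalonate and isoprenoid genes 3 rose in 9A1 aggregates, Hmgcs1 (0.98), Pmvk (0.95) and Mvd (0.82), and 1 in 14B3 aggregates, Hmgcs1 (0.52, adjusted p = 0.0263). Over all genes 17.4% rose in 9A1 aggregates and 15.7% in those of 14B3. The medians of the 7 were 0.09 and -0.04, beside 0.11 and 0.06 over all genes. Hmgcs1 was at 12.08 and 12.34 in basal 9A1 and at 12.99 and 13.38 in its aggregates, and at 12.89 and 12.81 in basal 14B3 and 13.26 and 13.46 in its aggregates. The basal 9A1 arrays were the lowest of the 8. The other probe sets of Hmgcs1 gave 0.755, 0.78 and 1.00 in 9A1 aggregates and 0.18, 0.27 and 0.53 in those of 14B3. The call in 14B3 was lost with the mean of all probe sets. Fdps and Idi1 were at 0.03 and 0.09 in 9A1 aggregates and at -0.28 and -0.08 in those of 14B3, not called.

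In Matrigel the cholesterol enzymes rose in part in 9A1 and fell in part in 14B3. In 9A1, 5 of 17 rose (Tm7sf2 1.85, Hmgcs1 0.78, Msmo1 0.75, Sc5d 0.72, Lss 0.54), with 13 above 0 and a median of 0.29. Over all genes 9.71% rose there and 43.4% were above 0, with a median of -0.03. In 14B3, 3 fell (Fdps -0.82, Lss -0.68, Idi1 -0.59), with 11 below 0 and a median of -0.44. Over all genes 7.6% fell there and 41.6% were above 0, with a median of -0.05. Lss was thus called higher in 9A1 (adjusted p = 0.0422) and lower in 14B3 (adjusted p = 0.015). Its interaction tests whether these changes differ from each other, not whether their directions are opposite. The call of Lss in 9A1 held in 12 of the 23 alternative settings and that in 14B3 in 20. The call of Idi1 in 14B3 was near the threshold (adjusted p = 0.0494) and held in 10 of the 23. With a replicate block, shared or within lines, 12 of the 32 were called in 14B3 Matrigel in place of 8, adding Mvd lower (-0.66) and Tm7sf2 (0.60) and Srebf1 (0.48) higher under both, Nsdhl lower (-0.45, adjusted p = 0.0486) under the shared block and Fdft1 lower (-0.48, adjusted p = 0.0433) under the block within lines. Without basal_14B3 replicate 1 or Matrigel_14B3 replicate 2 that count was 3, and it was 5 without basal_14B3 replicate 2. In 9A1 Matrigel it was 3 without basal_9A1 replicate 1, 5 without Matrigel_9A1 replicate 1, and 7 without Matrigel_9A1 replicate 2, in place of 11.

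**Figure D4:**
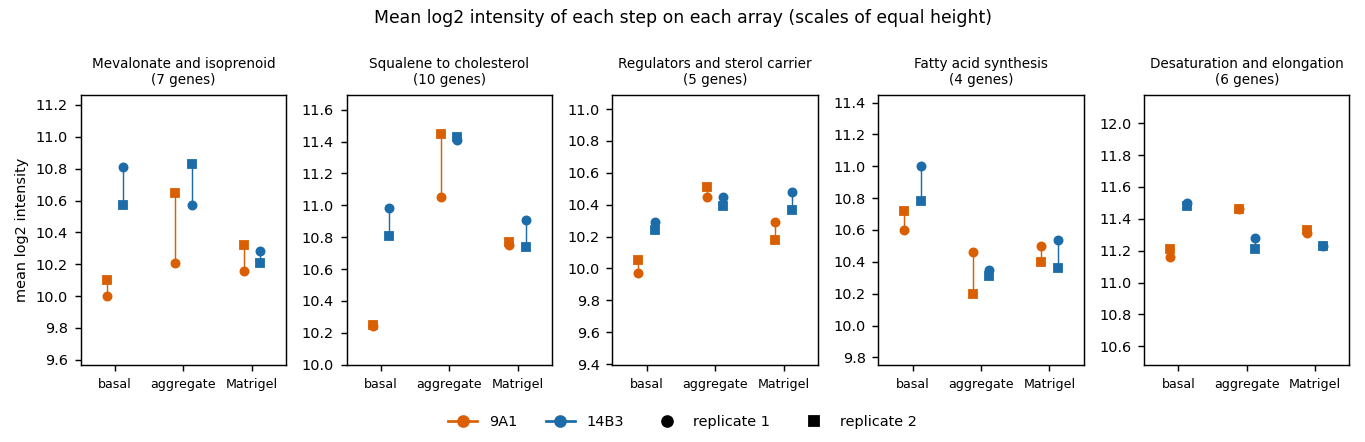
Mean log2 intensity of the genes of each step on each array, by culture and line (circles replicate 1, squares replicate 2, lines joining the 2 arrays of a group), with panels of equal height and their own offsets. In basal culture both 14B3 arrays lie above both 9A1 arrays in every panel, by most in the mevalonate and squalene panels, and the aggregate 9A1 arrays are far apart in those panels (10.21 and 10.65, 11.05 and 11.45).

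By step, the mean level of the 7 mevalonate and isoprenoid genes was 10.00 and 10.10 on the basal 9A1 arrays and 10.81 and 10.57 on those of 14B3. That of the 10 genes from squalene to cholesterol was 10.24 and 10.25 against 10.98 and 10.81. Both sets of 14B3 arrays were well above those of 9A1. In the aggregates the means of the first set were 10.21 and 10.65 in 9A1 and 10.57 and 10.83 in 14B3, and of the second 11.05 and 11.45 against 11.41 and 11.43. The lines overlapped here, and replicate 1 of the 9A1 aggregates was the lowest array in both sets. Over the 32 genes the median of replicate 2 minus replicate 1 was 0.30 in the 9A1 aggregates and -0.18 in basal 14B3, where over all genes it was 0.01 and 0.03.

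Fasn and Acly fell in the aggregates of both lines, where 10 of the 17 cholesterol enzymes rose in 9A1 and 4 in 14B3, with 0 lower. Fasn was at 11.21 and 11.22 in basal 9A1 and at 10.24 and 9.92 in its aggregates, and at 11.39 and 11.18 in basal 14B3 and 10.02 and 9.67 in its aggregates. It fell by 1.13 on the log2 scale in 9A1 (adjusted p = 0.000403) and by 1.44 in 14B3 (adjusted p = 8.23e-05), and in Matrigel by 0.79 (adjusted p = 0.0116) and 0.99 (adjusted p = 0.00317). Acly fell by 0.67 and 0.60 in the aggregates of 9A1 and 14B3, and was at -0.31 in 9A1 Matrigel, not called. In 14B3 Matrigel it fell by 0.55 (adjusted p = 0.0459), a call that held in 11 of the 23 alternative settings. Acaca was at -0.25, -0.36, -0.36 and -0.21 in 9A1 aggregates, 14B3 aggregates, 9A1 Matrigel and 14B3 Matrigel and was called in none of the 4. Its levels, 7.60 to 8.35 over the arrays, lie within the range of the background guide. Me1 rose in 9A1 (0.72 in aggregates, 0.62 in Matrigel) and was at 0.17 and -0.02 in 14B3, a difference between lines that was not called (-0.55 with adjusted p = 0.63 for aggregates).

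Among the desaturases, Fads1 fell in all 4 comparisons. It was at 11.23 and 11.13 in basal 9A1, 9.67 and 8.84 in its aggregates and 10.19 and 10.47 in its Matrigel cultures, and at 11.32 and 11.40, 9.84 and 9.75, and 10.58 and 10.64 in 14B3. The aggregates were lowest and the Matrigel cultures between them and basal culture in both lines. The falls were -1.93 and -1.56 in aggregates (adjusted p = 2.43e-05 and 0.000155) and -0.85 and -0.75 in Matrigel (adjusted p = 0.0188 and 0.0349). Fads2, its neighbour in the pathway, fell in 14B3 Matrigel (-0.55, adjusted p = 0.0337) and was at 0.03, -0.33 and -0.26 in 9A1 aggregates, 14B3 aggregates and 9A1 Matrigel, of which the shared block called the 14B3 aggregates (adjusted p = 0.035). Elovl6 rose in the aggregates of both lines, by 0.59 and 0.62 (adjusted p = 0.00794 and 0.00654).

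Scd1 rose in 9A1 by 2.76 ± 0.22 in aggregates (SE, adjusted p = 1.67e-06) and by 2.01 ± 0.22 in Matrigel (SE, adjusted p = 7.62e-05), 6.80- and 4.02-fold. In 14B3 it was at -0.33 (adjusted p = 0.305) and -0.28 (adjusted p = 0.519), with levels between 10.33 and 10.96 on all 6 arrays. Scd2 rose by 0.50 in 9A1 aggregates (adjusted p = 0.0356) and was at 0.31 in those of 14B3 (adjusted p = 0.2). Its interaction of -0.19 was not called.

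Of the regulators, Srebf1 rose by 1.13 in 9A1 aggregates (adjusted p = 0.000115) and by 0.62 in 9A1 Matrigel (adjusted p = 0.0166). In 14B3 it was at 0.39 (adjusted p = 0.0767) and 0.48 (adjusted p = 0.0583), and the shared block called both (0.0348 and 0.0224), the block within lines the second (0.0355). Insig2 rose in all 4 comparisons, by 1.17 and 0.85 in 9A1 and by 0.53 and 1.00 in 14B3 for aggregates and Matrigel, and was the 1 gene of the 32 that rose in 14B3 Matrigel (adjusted p = 0.00171). Stard4 rose by 0.78 and 0.53 in the aggregates of 9A1 and 14B3 (adjusted p = 0.00241 and 0.024). Its other probe set gave 0.24 and 0.17, and both calls were lost with the mean of all probe sets. Srebf2 was at -0.51 and -0.44 in the aggregates (adjusted p = 0.0999 and 0.17) and was called lower there with the shared block (0.0227 and 0.0477), and with the block within lines in 9A1 (0.0328). The other probe set of Srebf2 did not show this fall, at 0.19 and 0.01 in the aggregates of 9A1 and 14B3. Scap was at -0.14 to -0.23 in the 4 comparisons, not called.

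Proliferation genes fell in the same cultures, 8 of 9 in the aggregates of each line (medians -3.81 in 9A1 and -3.41 in 14B3), 8 in 9A1 Matrigel (median -1.45) and 5 in 14B3 Matrigel (median -1.18). Liver progenitor markers rose in part, 5 of 12 in 9A1 aggregates with 3 lower, 4 in those of 14B3 with 2 lower, and 6 and 4 in 9A1 and 14B3 Matrigel with 0 lower. The shares of all genes that rose and fell were 17.4% and 19.5% in 9A1 aggregates and 15.7% and 17.5% in those of 14B3. In Matrigel they were 9.71% and 8.07% in 9A1 and 8.91% and 7.6% in 14B3. The part of the proliferation genes or of the progenitor markers in the changes of the lipid genes was not tested.

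Other genes of the pathway were measured for 28 of 41 listed: partners in synthesis and uptake, genes that process the regulators, and genes of sterol efflux, oxidation and esters. In the line difference 0 of the 28 were called by limma in basal culture, with 6 higher and 0 lower at an unadjusted p below 0.05, 25 above 0 and a median of 0.11. Over all genes 4.45% were higher and 4.7% lower at that p, and 61.5% were above 0 with a median of 0.05. Cyp51, the lanosterol demethylase, was at 0.83 in basal culture (adjusted p = 0.0873), 0.32 in aggregates and -0.14 in Matrigel. In the aggregates Scarb1, the HDL receptor gene, was the 1 called gene (-1.15, adjusted p = 0.0365), and in Matrigel Abca1, the sterol efflux pump gene, was (1.26, adjusted p = 0.0347). Over all genes 1.53% were called between lines in the aggregates and 3.77% in Matrigel. Of the 28, 14 rose and 1 fell in 9A1 aggregates, 11 and 3 in 14B3 aggregates, 10 and 1 in 9A1 Matrigel, and 8 and 1 in 14B3 Matrigel. Over all genes 17.4% rose and 19.5% fell in 9A1 aggregates, and 15.7% and 17.5% in 14B3 aggregates. In 9A1 Matrigel 9.71% rose and 8.07% fell, and in 14B3 Matrigel 8.91% and 7.6%.

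Where a gene had more than 1 probe set, the others mostly pointed the same way. For 20 of the genes there were 32 other probe sets, of which 26 had the sign of the chosen one for the basal line difference, 25 for the aggregate and 21 for the Matrigel one. Of those that belong to called genes, 5 of 5, 1 of 1 and 1 of 1 did. In 9A1 aggregates 19 of 20 did.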

How the data were processed

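RNA of 12 cultures was measured on Affymetrix mouse 430A arrays. The deposited values are signal intensities on a linear scale (14.4 to 27318), for which the submitters' processing notes name R 2.3.1 and RMA. Their log2 was taken here. Of 22690 probe sets, 20380 carried 1 symbol in the platform annotation, 691 several and 1555 none, besides 64 controls, and those with 1 symbol were used. The brightest probe set stood for each of 12393 genes, with no filter on dim genes. The number of arrays limits the precision.

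A mean per group was fitted with limma 3.58.1 (lmFit, eBayes) in R 4.3.3, with 6 residual degrees of freedom, for 10 contrasts, two-sided, with Benjamini-Hochberg adjustment across the 12393 genes and a threshold of 0.05. The procedure was tested on simulated data. Replicate differences correlated over 0.1 in all 15 pairs of groups (r from 0.1005 to 0.6442), so a replicate block is given where it changes a call. Members and lists were chosen with earlier results of these data known. Genes with values on every array were the called ones with the largest line difference or interaction, and the regulators; those given on every array for the responses (Tm7sf2, Hmgcs1, Fasn and Fads1) were chosen after their values were seen. Alternatives were scalings, an offset, probe set rules, weights, blocks, fewer arrays and a larger change. Promoters are RefSeq's. Figures used Python 3.11.15 and matplotlib 3.10.9.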

Additional observations from a re-analysis of the deposited data

Results flagged for a closer look

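A test of the difference between cultures singled out 3 line differences. For Scd1 the difference 14B3 minus 9A1 was lower in the aggregates than in basal culture (-3.10, adjusted p = 0.000675), as it turned from 1.02 to -2.08. For Scd1 it was lower in Matrigel than in basal culture (-2.29, adjusted p = 0.00652), turning to -1.27. For Lss it was lower in Matrigel than in basal culture (-1.23, adjusted p = 0.0379), going from 1.19 to -0.03. Both Scd1 values kept their call in all 23 alternative settings, and Lss kept its call in 10 of the 23. The 3 share the basal arrays. Groups of 2 arrays are too small for a search for single arrays that stand apart.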

How the results depend on the processing

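The 59 calls among the genes were recomputed under 23 alternatives, 1357 values in all: 1185 kept direction and call, 172 lost the call and 0 changed sign. Calls in the basal line difference (5) became 11 with the replicate block shared by both lines, 10 with it within lines, 3 with probe sets averaged per gene, 14 with array weights, 3 with a change of at least 1 log2 unit and 9 with only the arrays of the contrast. With quantile scaling 6 were called, of which 3 were among the 5, and Mvd and Scd1 were lost. Of the 5, Lss kept its call in 23 of the 23 settings, Nsdhl in 18, Mvd in 17, Scd1 in 13 and Fdps in 12. Calls in Matrigel (1) became 2 with the shared block. For the aggregate minus basal interaction (1) they became 2 with either block, quantile scaling, array weights or a trend. For the Matrigel minus basal interaction (2) they became 1 with median centring, an offset of 50, the mean of probe sets or only the contrast's arrays. A change of at least 1 log2 unit left 10, 2, 4 and 1 calls for 9A1 aggregates, 9A1 Matrigel, 14B3 aggregates and 14B3 Matrigel, since it asks for more. The cause of the other moves was not tested. Either block changed no other call than those given with the results.

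Leaving out each array in turn gave 1 to 8 calls between lines in basal culture, 1 to 2 in aggregates and 0 to 1 in Matrigel. It gave 1 to 3, 1 to 2 and 0 to 0 in the interactions (aggregate minus basal, Matrigel minus basal, Matrigel minus aggregate). It gave 13 to 21 for 9A1 aggregates, 3 to 12 for 9A1 Matrigel, 7 to 11 for 14B3 aggregates and 3 to 10 for 14B3 Matrigel. A group left with 1 array is assumed to vary like the others. The counts of genes above 0 ran from 28 to 32 in basal culture, 16 to 26 in aggregates and 17 to 26 in Matrigel over settings chosen after seeing the data, lowest without basal_14B3 replicate 1, aggregate_9A1 replicate 1 and Matrigel_14B3 replicate 1. With 2 arrays a group, small differences cannot be shown or excluded.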
